A study of Homo sapiens with 12 samples.

Results

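The genes described here are 10 that carry iron into human cells, store it, let it out or sense it: the transferrin receptors TFRC and TFR2, the endosomal reductase STEAP3, the iron transporters SLC11A2 and SLC25A37, the ferritin subunits FTH1 and FTL, the exporter SLC40A1 (ferroportin), and the iron regulatory proteins ACO1 and IREB2. They were picked by gene name out of 58735 genes counted by RNA-seq, and all 10 were among the 20821 genes with enough reads for a test. The RNA came from K562, a human leukemia cell line driven by the BCR-ABL1 fusion kinase, in 12 libraries from 4 groups with 3 biological replicates each. Cells of the mock DMSO group received only the vehicle, those of mock nilotinib received 0.1 μM nilotinib (an inhibitor of the BCR-ABL1 kinase), those of hemin DMSO received 50 μM hemin for 24 h, and those of hemin nilotinib received nilotinib first and then both agents. The sources disagree on whether the mock groups were collected at the start or at the end of the hemin period, so a difference between mock and hemin libraries may include a difference in time. For the same reason the time in nilotinib may be shorter in mock nilotinib than in hemin nilotinib, and the effects of nilotinib with and without hemin may differ by that as well. RNA was taken from whole cultures of a single line, in which fewer cells using a gene and less of its RNA per cell cannot be told apart.

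Iron reaches most cells bound to transferrin, which the transferrin receptor carries into endosomes, where STEAP3 reduces the iron and SLC11A2 (DMT1) moves it into the cytosol. Erythroid cells send most of it through mitoferrin-1, encoded by SLC25A37, into mitochondria for heme synthesis, keep a reserve inside the ferritin shell built of FTH1 and FTL subunits, and release the surplus through ferroportin. When iron is scarce, the proteins encoded by ACO1 and IREB2 bind hairpins called iron-responsive elements (IREs), which blocks translation when the hairpin lies in the 5′ untranslated region (UTR) and protects the message from decay when it lies in the 3′ UTR. Hemin, the oxidised form of heme, brings iron with it, and heme oxygenases set that iron free.

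The IREs are shown first because they join 5 of the 10 messages to the same regulators. In this search 4 of these messages held a fully paired hairpin, and SLC11A2 a partly paired one. The sites were found in the GENCODE 29 transcripts (GRCh38) as a C, 5 bases of any kind and a loop that opens with CAGTG, with the 5 bases before the loop set against the 5 bases after it. The letters searched were CNNNNNCAGTGN on the sense strand only, and capitals mark the bulged C and the 6-base loop in each 29-base stretch, written 5′ to 3′ with T for U. FTH1 (chr11:61967574-61967602, minus strand), FTL (chr19:48965335-48965363, plus strand) and SLC40A1 (chr2:189580661-189580689, minus strand) each held 1 site in the 5′ UTR with all 5 pairs formed:
FTH1: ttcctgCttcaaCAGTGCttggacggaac
FTL: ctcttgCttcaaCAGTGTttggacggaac
SLC40A1: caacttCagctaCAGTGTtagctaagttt
TFRC held 4 such sites in its 3′ UTR, all on the minus strand, at chr3:196050979-196051007 (site 1), chr3:196050575-196050603 (site 2), chr3:196050510-196050538 (site 3) and chr3:196050463-196050491 (site 4):
TFRC site 1: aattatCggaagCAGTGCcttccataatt
TFRC site 2: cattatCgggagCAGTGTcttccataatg
TFRC site 3: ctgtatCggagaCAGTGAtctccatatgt
TFRC site 4: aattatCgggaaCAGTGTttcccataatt
SLC11A2 held 1 site in the 3′ UTR of 7 of its transcripts with 4 of the 5 pairs formed (chr12:50988269-50988297, minus strand):
SLC11A2: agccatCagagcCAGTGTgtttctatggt

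With all 5 pairs required, the letters occurred in 393 of the 19922 protein-coding genes (1.97%), and with 4 pairs allowed in 2730 (13.7%). ACO1 and IREB2 also held a 3′ UTR match with 4 pairs, each in a single transcript. Like the match of SLC11A2, these are of a kind that the second share shows to be common. The TFRC sites lay in the 3′ UTR of 3 of its 15 annotated transcripts, and the SLC11A2 site in that of 7 of 34. TFR2, STEAP3 and SLC25A37 held no match, which says only that these letters were not in their transcripts.

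Total counts per library ran from 33457078 to 50506990. Levels are given in CPM, counts per 1000000 after scaling the libraries by TMM, and even the sparsest member had 184 counts in its lowest library (STEAP3 in hemin DMSO replicate 1). Fold changes, their standard errors (SE) and p-values came from the quasi-likelihood test of edgeR over all 12 libraries, adjusted by Benjamini-Hochberg over the 20821 genes, and a gene was called changed at an adjusted p under 0.05. Hemin nilotinib replicates 1 and 3 agreed least: their log2 CPM correlated at 0.969 (Pearson, across genes), the lowest of the 12 same-group pairs, which otherwise ran from 0.980 to 0.992. Replicate 2 of that group correlated at 0.986 with replicate 3 and at 0.981 with replicate 1. Replicate 1 was therefore treated as the library apart, and results that rest on it are given with and without it. The 5 erythroid markers summed here (GATA1, TAL1, KLF1, HBG1 and HBZ) were detected in every library, and their summed level was 866 to 1331 CPM in mock DMSO, 769 to 854 in hemin DMSO, 5839 to 7503 in mock nilotinib and 6863 to 12417 in hemin nilotinib. The sum hides opposite moves with hemin alone. Mean CPM fell for KLF1 (284 to 24.0), TAL1 (244 to 88.7) and GATA1 (296 to 158). It rose for HBG1 (195 to 349) and HBZ (79.8 to 185). With nilotinib without hemin all 5 rose, GATA1 least (296 to 376) and HBZ most (79.8 to 2912). The 5 myeloid markers, 4 of which had a median under 1 CPM, summed to 60.2 to 80.6 CPM in the DMSO groups and 8.19 to 18.1 CPM in the nilotinib groups. The megakaryocyte sums lay between 13.0 and 70.8 CPM (4 markers, PF4 with a median of 0), the lymphoid sums between 1.58 and 15.7 CPM (4 markers, MS4A1 with a median of 0) and the epithelial sums between 28.2 and 65.7 CPM (3 markers, KRT5 with a median of 0). With nilotinib the erythroid sum rose, as several iron genes did, both with and without hemin. The myeloid, megakaryocyte, lymphoid and epithelial sums fell in both cases. Within the megakaryocyte sum ITGA2B fell while ITGB3 rose. The part of these sums in the results was not tested.

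In the presence of hemin, nilotinib raised genes of iron uptake, mitochondrial import and export. TFRC, TFR2, SLC11A2, STEAP3, SLC25A37, SLC40A1 and ACO1 were higher in hemin nilotinib than in hemin DMSO, and FTL was lower, so that 8 of the 10 genes were called. The call of TFRC rests on hemin nilotinib replicate 1 (without it log2 0.43, adjusted p = 0.103). Of all genes tested, 64.2% were called in this comparison, 32.4% higher and 31.8% lower. The 7 higher are a larger share of the 10 genes than the background, and the 1 lower a smaller share. Because the genes were chosen with earlier results of these data known, shares here and below are a description only. The median log2 fold change was 1.56 over the 10 genes and 0.02 over all genes.

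Without hemin, nilotinib raised 7 of the 10 genes, the first 6 of that group and FTH1, and lowered none (0 also at an unadjusted p under 0.05 and by DESeq2). The background was 42.5% of genes called, 20.7% higher and 21.8% lower, and the medians were 0.95 for the 10 genes and 0.0039 for all genes. FTL, ACO1 and IREB2 were not called.

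Hemin alone raised the ferritin genes and lowered genes of uptake, mitochondrial import and export. FTH1 and FTL rose, while TFR2, STEAP3, SLC25A37, SLC40A1 and ACO1 fell, 7 of 10 genes in all, where 53.6% of all genes were called (25.7% higher and 27.8% lower). The median was -0.68 for the 10 genes and -0.05 for all genes. This comparison and the one of nilotinib without hemin share the mock DMSO libraries, and each shares libraries with the comparison under hemin, so their values are set side by side and not correlated.

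In cells that already had nilotinib, hemin changed only FTL among the 10 genes at the adjusted threshold, and 4 genes had an unadjusted p under 0.05 (TFRC, TFR2, FTH1 and FTL). The background was low here too, at 5.80% of genes called, 3.52% higher and 2.28% lower, and the medians were 0.03 for the 10 genes and 0.03 for all genes. The replicate numbers paired the libraries in this comparison, and with the replicate as a block 2 of the 10 genes were called, where 7.62% of all genes were. Without hemin nilotinib replicate 1 the number was 4, where 12.8% of all genes were called.

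**Figure D1:**
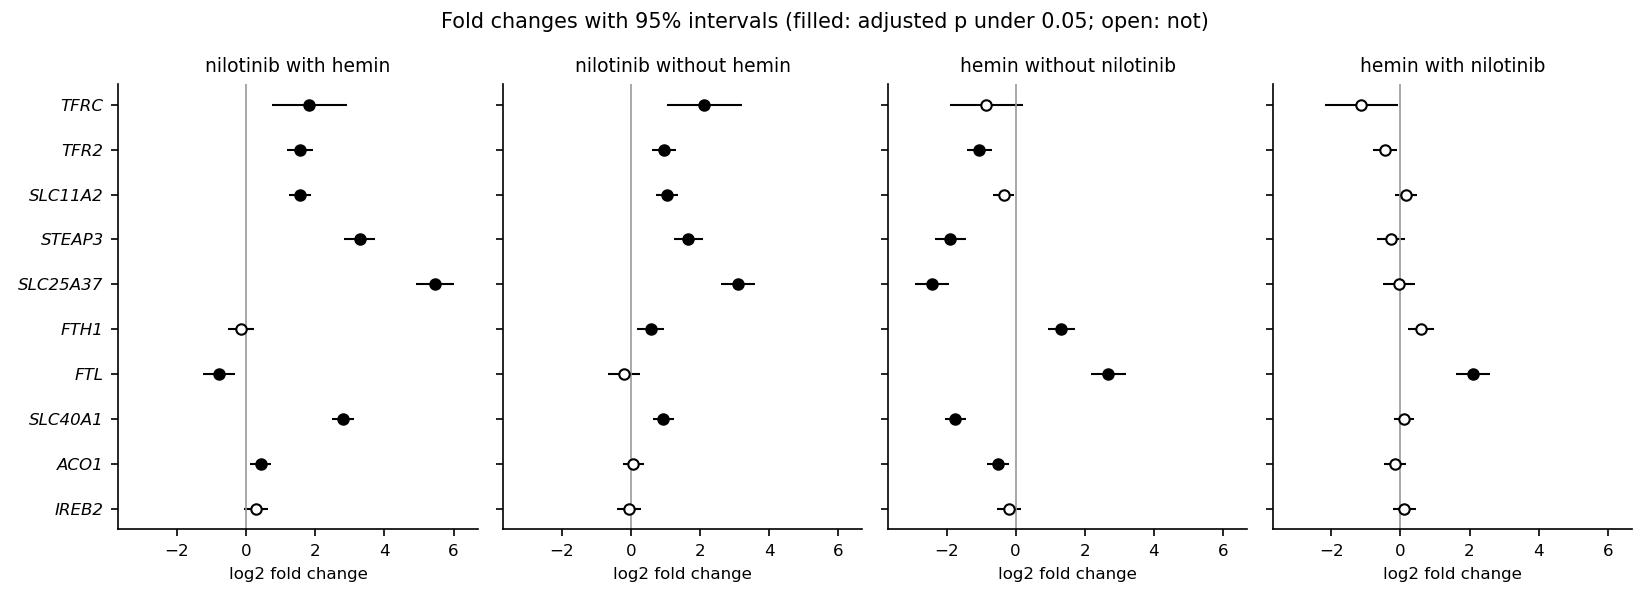
Log2 fold change (x axis) of each of the 10 iron genes in the 4 comparisons, with 95% confidence intervals as bars, filled points for an adjusted p under 0.05 and open points otherwise. Nilotinib moved most points to the right of 0 with and without hemin, hemin without nilotinib moved 5 called genes to the left and both ferritins to the right, and in the last panel only FTL is filled.

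The main route of iron into erythroid cells is transferrin receptor 1, encoded by TFRC (ENSG00000072274; chromosome 3 from 196027183 to 196082189, minus strand). TFRC stood at 414, 658 and 844 CPM in the mock DMSO libraries and at 279, 423 and 364 CPM in hemin DMSO, in the order of replicates 1 to 3. The mock nilotinib libraries held 3006, 2809 and 2503 CPM, and the hemin nilotinib libraries 2845, 519 and 429 CPM. Mock nilotinib lay far above every DMSO library, whereas hemin nilotinib was split, with replicate 1 beside mock nilotinib and the other replicates within the range of mock DMSO. Nilotinib without hemin raised TFRC 4.34-fold (log2 2.12, SE 0.51, adjusted p = 0.00328). Under hemin the rise was 3.56-fold (log2 1.83, SE 0.51, adjusted p = 0.00493), but without hemin nilotinib replicate 1 it was a log2 of 0.43 with an adjusted p of 0.103, and limma-trend on the deposited FPKM gave 1.24 with an adjusted p of 0.0713.

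Whether a fall of TFRC with hemin was called depended on the fit. With all 12 libraries, hemin gave log2 fold changes of -0.85 (SE 0.50, adjusted p = 0.162) without nilotinib and -1.13 (SE 0.50, adjusted p = 0.197) with it, and neither was called. The first hardly moved but was called in the 6 DMSO libraries alone (-0.81, adjusted p = 0.00527). Both were called with the loosest filter, any gene with a count (-0.92, adjusted p = 1.03e-07, and -1.13, adjusted p = 5.53e-10). In that fit the SE of TFRC was 0.16 in both comparisons, near those of FTH1 (0.16) and FTL (0.17). The p-values of that fit therefore do not measure the spread of TFRC between replicates. Without hemin nilotinib replicate 1, the values were -0.86 (adjusted p = 0.00134) and -2.55 (adjusted p = 1.83e-06), and the difference between the effects of nilotinib with and without hemin went from -0.29 (adjusted p = 0.791) to -1.69 (adjusted p = 0.000507). In those 11 libraries TFRC was therefore called lower with hemin on both backgrounds.

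**Figure D2:**
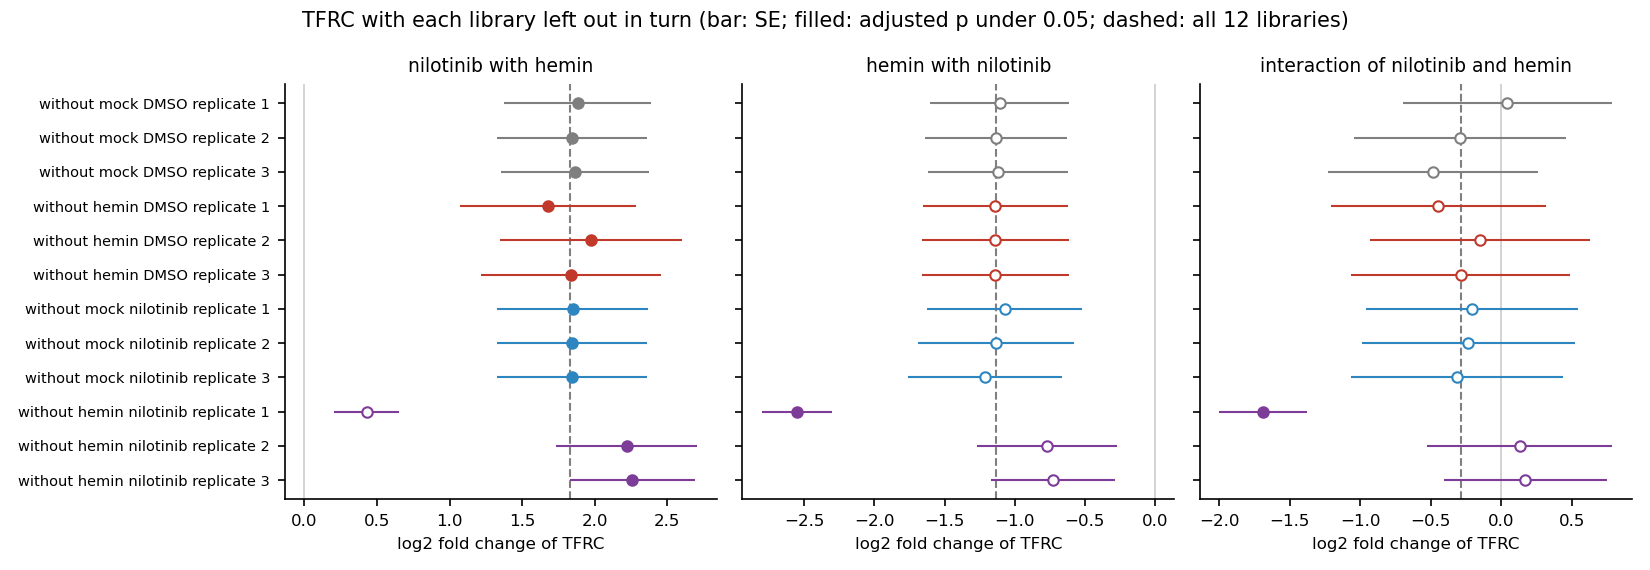
Log2 fold change of TFRC (x axis) in 3 comparisons when each of the 12 libraries is left out in turn (y axis), with bars for the SE, filled points for an adjusted p under 0.05 and a dashed line for the value with all libraries. Leaving out hemin nilotinib replicate 1 moves the value to 0.43, -2.55 and -1.69 and changes the call in each panel, and no other library does so.

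TFR2 (ENSG00000106327; chromosome 7 from 100620416 to 100642779, minus strand) encodes the second transferrin receptor, which in erythroid cells sits beside the erythropoietin receptor and whose transcripts held no IRE match. It stood at 340.5, 338 and 326 CPM in mock DMSO and at 128, 218 and 140.4 CPM in hemin DMSO. In mock nilotinib it stood at 646, 672 and 632 CPM and in hemin nilotinib at 522, 454 and 455 CPM. The 4 groups formed 4 bands that did not overlap, mock nilotinib on top, then hemin nilotinib, mock DMSO and hemin DMSO. Nilotinib raised TFR2 1.94-fold without hemin (log2 0.96, SE 0.17, adjusted p = 0.000258) and 2.94-fold with it (log2 1.56, SE 0.17, adjusted p = 9.71e-07), and hemin alone lowered it (log2 -1.05, SE 0.17, adjusted p = 8.43e-05). Hemin after nilotinib gave a log2 of -0.45 (SE 0.17, adjusted p = 0.130), which with the replicate block was not called over 12 libraries (-0.44, adjusted p = 0.107) and was called in the 6 libraries alone (-0.44, adjusted p = 0.0431).

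STEAP3 (ENSG00000115107; chromosome 2 from 119223831 to 119265652, plus strand), the ferrireductase of the transferrin endosome, showed the second-largest rise of the 10 genes under hemin. Its level was 21.9, 26.5 and 28.3 CPM in mock DMSO and 5.64, 7.43 and 7.63 CPM in hemin DMSO. With nilotinib it was 80.0, 76.7 and 85.0 CPM without hemin and 94.1, 55.4 and 52.0 CPM with it. Every nilotinib library lay above every mock DMSO library, and every mock DMSO library above every hemin DMSO library. The rise with nilotinib was 3.15-fold without hemin (log2 1.66, SE 0.20, adjusted p = 5.62e-06) and 9.72-fold with hemin (log2 3.28, SE 0.21, adjusted p = 3.47e-09), and the difference between these effects was itself called (log2 1.62, SE 0.28, adjusted p = 0.000557). Hemin lowered STEAP3 in DMSO cells (log2 -1.89, SE 0.21, adjusted p = 1.88e-06). In nilotinib cells its effect was not called (log2 -0.26, SE 0.19, adjusted p = 0.464) unless hemin nilotinib replicate 1, the highest library, was left out (log2 -0.59, adjusted p = 0.0148). The antisense gene STEAP3-AS1, which overlaps some of its exon bases, held at most 2.11% as many counts. That count cannot show whether reads in the overlap were left out of STEAP3.

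SLC11A2 (ENSG00000110911; chromosome 12 from 50979401 to 51028566, minus strand) encodes DMT1, which moves the reduced iron across the endosomal membrane. It stood at 76.9, 74.1 and 78.4 CPM in mock DMSO, at 70.5, 47.0 and 62.9 CPM in hemin DMSO, at 138, 158 and 177 CPM in mock nilotinib and at 174, 163 and 193 CPM in hemin nilotinib. Both nilotinib groups lay above both DMSO groups and overlapped each other. The rise was 2.06-fold without hemin (log2 1.04, SE 0.15, adjusted p = 3.21e-05) and 2.94-fold with it (log2 1.56, SE 0.15, adjusted p = 2.24e-07). Hemin alone gave a log2 of -0.35 (SE 0.15, adjusted p = 0.0571), just short of the threshold, and 11 of the 23 alternative settings called it lower. With nilotinib present the interval of the hemin effect ran from -0.14 to 0.47.

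**Figure D3:**
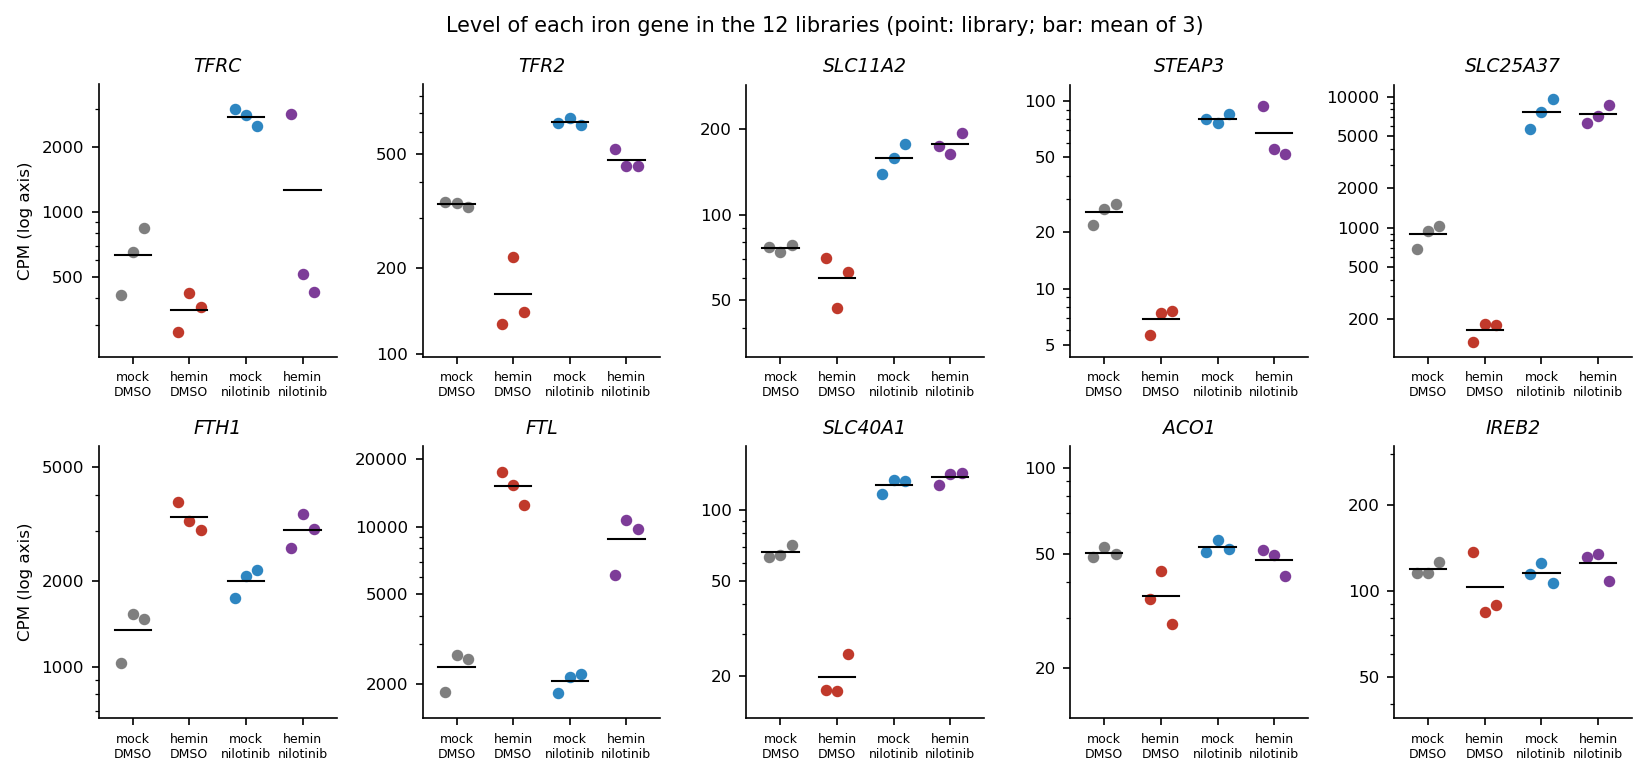
CPM (y axis, log scale) of the 10 iron genes in each library, by group, with a bar at the mean of 3. Nilotinib libraries sit highest for SLC11A2, STEAP3, SLC25A37 and SLC40A1, hemin libraries sit highest for FTH1 and FTL, and hemin nilotinib replicate 1 stands apart from its group at 2845 CPM for TFRC.

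SLC25A37 (ENSG00000147454; chromosome 8 from 23528805 to 23575463, plus strand), the mitoferrin that feeds heme synthesis in erythroid mitochondria, changed more with nilotinib than any other member. Mock DMSO libraries held 686, 946 and 1037 CPM and hemin DMSO libraries 135, 184 and 182 CPM. Mock nilotinib libraries held 5635, 7714 and 9537 CPM and hemin nilotinib libraries 6316, 7071 and 8715 CPM. The nilotinib groups overlapped almost completely, and a wide gap separated them from mock DMSO and mock DMSO from hemin DMSO. Per kilobase of gene length, SLC25A37 ranked between 25 and 39 among all genes in the nilotinib libraries, between 231 and 358 in mock DMSO and between 2006 and 2770 in hemin DMSO.

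Nilotinib raised SLC25A37 8.57-fold without hemin (log2 3.10, SE 0.24, adjusted p = 4.22e-08) and 44.1-fold with it (log2 5.46, SE 0.27, adjusted p = 1.66e-10). The difference between these effects was a log2 of 2.36 (SE 0.31, adjusted p = 6.99e-05). With hemin alone SLC25A37 fell by 2.41 on the log2 scale (SE 0.23, adjusted p = 4.81e-07), while in nilotinib cells hemin gave a log2 of -0.05 with a 95% interval from -0.51 to 0.41. The related mitoferrin of other tissues, SLC25A28, stood at 9.35 to 15.4 CPM over all libraries. It rose with nilotinib under hemin (log2 0.41, SE 0.16, adjusted p = 0.0351), and without hemin its value was 0.32 (adjusted p = 0.120).

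The ferritin genes answered to hemin above all, and FTL more than FTH1. FTL (ENSG00000087086; chromosome 19 from 48965301 to 48966878, plus strand) encodes the light subunit, which favours the growth of the iron core. It stood at 1843, 2673 and 2578 CPM in mock DMSO and at 17619.9, 15392 and 12489.7 CPM in hemin DMSO. In mock nilotinib it stood at 1820.2, 2139 and 2205 CPM and in hemin nilotinib at 6072, 10665 and 9728 CPM. Hemin libraries lay above mock libraries on both backgrounds, the mock groups overlapped, and hemin nilotinib lay wholly below hemin DMSO. Per kilobase FTL was the most abundant of all genes in the 3 hemin DMSO libraries and in hemin nilotinib replicates 2 and 3, seventh (rank 7) in hemin nilotinib replicate 1, and between ranks 10 and 13 in the mock libraries.

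Hemin raised FTL 6.41-fold in DMSO cells (log2 2.68, SE 0.24, adjusted p = 2.09e-07) and 4.29-fold in nilotinib cells (log2 2.10, SE 0.23, adjusted p = 0.000234), and these effects were not shown to differ (log2 -0.58, 95% interval -1.24 to 0.09, adjusted p = 0.178). Under hemin, nilotinib lowered FTL to 0.582 of its level (log2 -0.78, SE 0.22, adjusted p = 0.00602), a call that limma-trend on log2(FPKM + 1) did not make (-0.85, adjusted p = 0.155). Without hemin the effect of nilotinib on FTL was a log2 of -0.20 (SE 0.22, adjusted p = 0.489).

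FTH1 (ENSG00000167996; chromosome 11 from 61959718 to 61967660, minus strand) encodes the heavy subunit, which oxidises iron as it enters the shell. Its libraries held 1033, 1524 and 1473 CPM in mock DMSO, 3787, 3231 and 3022 CPM in hemin DMSO, 1739, 2073 and 2179.6 CPM in mock nilotinib and 2604, 3432 and 3033 CPM in hemin nilotinib. Both hemin groups lay above both mock groups and overlapped each other, and mock nilotinib lay above mock DMSO. Hemin raised FTH1 2.49-fold in DMSO cells (log2 1.32, SE 0.18, adjusted p = 2.09e-05). In nilotinib cells the log2 of FTH1 with hemin was 0.60 (SE 0.18, adjusted p = 0.0624). It was called without hemin nilotinib replicate 1 (0.69, adjusted p = 0.0165), by DESeq2 (0.59, adjusted p = 0.0186) and with the replicate block (0.60, adjusted p = 0.0453). Of the 23 alternative settings, 16 did not call it.

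Nilotinib without hemin raised FTH1 1.49-fold (log2 0.57, SE 0.18, adjusted p = 0.0178), and with hemin gave a log2 of -0.15 (95% interval -0.53 to 0.24), a sign that turned when no composition factors were used. The call without hemin was lost in 5 of 23 alternative settings, with limma-trend on either log2(FPKM + 1) or log2(FPKM + 0.1) (0.59, adjusted p = 0.0801 and 0.0765), without mock DMSO replicate 1 (0.37, adjusted p = 0.125), without mock nilotinib replicate 2 (0.51, adjusted p = 0.0759) or without mock nilotinib replicate 3 (0.48, adjusted p = 0.0884). The difference between the effects with and without hemin was a log2 of -0.72 (SE 0.26, adjusted p = 0.0432) and failed the threshold in 10 of 21 alternative settings. One of these left out hemin nilotinib replicate 1 (-0.61, adjusted p = 0.0695). In the annotation 62.4% of the exon bases of FTH1 overlap BEST1 on the other strand, and BEST1 itself held 0.022% to 1.32% as many counts as FTH1. Strandedness was not given, so these counts cannot show whether reads in the overlap were left out of FTH1. The 25 FTH1 pseudogenes together held 0.975% to 1.69% of the counts of the family.

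Ferritin transcripts made up 0.319% to 0.447% of all counts in the mock libraries, 1.46% to 1.93% in hemin DMSO and 0.854% to 1.43% in hemin nilotinib. The balance of the subunits varied little between the replicates of a mock group. Per kilobase, FTL exceeded FTH1 by 4.12, 4.05 and 4.05 times in the mock DMSO libraries and by 2.42, 2.39 and 2.34 times in mock nilotinib. With hemin the ratio was 10.8, 11.01 and 9.56 in DMSO cells and 5.39, 7.19 and 7.42 in nilotinib cells. As means these were 4.07 ± 0.043, 2.38 ± 0.041, 10.4 ± 0.78 and 6.66 ± 1.11 (SD, n = 3 each). No group overlapped another, hemin moved the balance towards FTL, and nilotinib moved it towards FTH1 with or without hemin. A ratio taken within a library does not depend on how the libraries were scaled. Its absolute value rests on the gene lengths in the deposited table (878 bases for FTL and 2030 for FTH1). It also rests on how reads in the overlap of FTH1 with BEST1 were counted. The ratios are given as a description, with no test.

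The balance between storage and uptake moved over a far wider range. FTL per TFRC, both per kilobase, was 40.0, 36.5 and 27.4 in mock DMSO, 567, 327 and 308 in hemin DMSO, 5.44, 6.84 and 7.91 in mock nilotinib, and 19.2, 185 and 204 in hemin nilotinib. The groups kept the same order as for the subunits except for hemin nilotinib replicate 1, which fell below the mock DMSO libraries. TFRC per TFR2 was 2.99, 2.68 and 2.55 in mock nilotinib and between 0.781 and 1.66 in the DMSO libraries. In hemin nilotinib it was 3.50 in replicate 1 and 0.734 and 0.605 in the others.

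**Figure D4:**
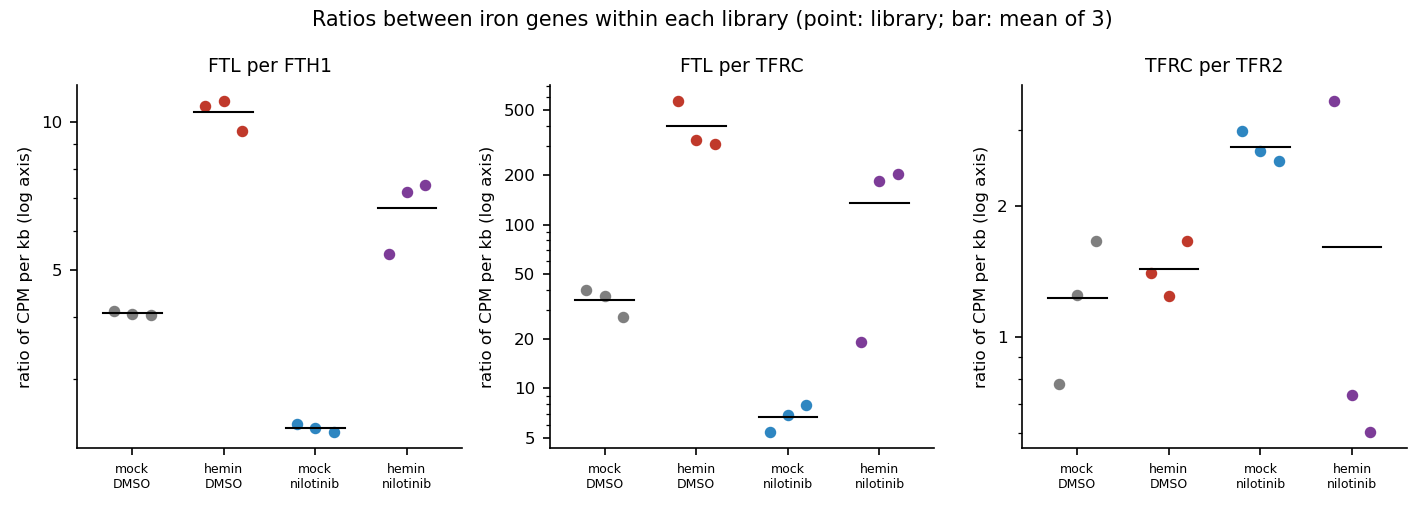
Ratios of CPM per kilobase (y axes, log scale) within each library for FTL per FTH1, FTL per TFRC and TFRC per TFR2, by group, with a bar at the mean of 3. FTL per FTH1 forms 4 separate bands from 2.38 in mock nilotinib to 10.4 in hemin DMSO, while in the other panels hemin nilotinib replicate 1 lies far from the other replicates of its group.

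SLC40A1 (ENSG00000138449; chromosome 2 from 189560579 to 189583758, minus strand) encodes ferroportin, the only known iron exporter of mammalian cells, and holds the IRE shown above in the 5′ UTR of 1 of its 7 annotated transcripts. The gene counts do not say which transcript was used. It stood at 63.2, 64.3 and 71.1 CPM in mock DMSO and at 17.4, 17.3 and 24.7 CPM in hemin DMSO. With nilotinib it stood at 116, 134 and 132 CPM without hemin and at 127, 142 and 143 CPM with it. The nilotinib groups overlapped each other and lay above mock DMSO, which lay above hemin DMSO. Nilotinib raised it 1.92-fold without hemin (log2 0.94, SE 0.14, adjusted p = 5.34e-05) and 6.92-fold with hemin (log2 2.79, SE 0.15, adjusted p = 4.31e-10), and hemin alone lowered it (log2 -1.74, SE 0.15, adjusted p = 1.21e-07). The effects of nilotinib differed between the hemin states by a log2 of 1.85 (SE 0.20, adjusted p = 1.31e-05). In nilotinib cells the hemin effect was 0.11 with an interval from -0.19 to 0.40.

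Of the IRE-binding proteins, ACO1 (IRP1; ENSG00000122729, chromosome 9 from 32384603 to 32454769, plus strand) doubles as the cytosolic aconitase, and IREB2 (IRP2; ENSG00000136381, chromosome 15 from 78437431 to 78501456, plus strand) is controlled mainly by the degradation of its protein. ACO1 stood at 48.9, 52.9 and 50.1 CPM in mock DMSO and 34.9, 43.7 and 28.5 CPM in hemin DMSO, and between 41.8 and 56.0 CPM in the nilotinib libraries. The hemin DMSO libraries were the lowest, with 1 hemin nilotinib library among them. ACO1 fell with hemin alone (log2 -0.50, SE 0.15, adjusted p = 0.00857) and rose with nilotinib under hemin (log2 0.42, SE 0.15, adjusted p = 0.0203), and both calls were lost without hemin DMSO replicate 3 (-0.35, adjusted p = 0.0655, and 0.27, adjusted p = 0.127). The second was also lost without hemin DMSO replicate 1 (0.40, adjusted p = 0.0533), without hemin nilotinib replicate 2 (0.39, adjusted p = 0.0688) and in the 6 libraries alone (0.44, adjusted p = 0.0655).

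IREB2 ran from 83.9 CPM in hemin DMSO replicate 2 to 137 CPM in hemin DMSO replicate 1, so that a single group spanned its whole range, and it was called in none of the comparisons by edgeR with TMM or by DESeq2 (its smallest unadjusted p with TMM was 0.114). Nilotinib under hemin gave a log2 of 0.27 (SE 0.16, adjusted p = 0.153) and hemin alone -0.20 (SE 0.16, adjusted p = 0.309), and the difference between the effects of nilotinib was 0.32 (SE 0.23, adjusted p = 0.315). Without hemin DMSO replicate 1 these values were 0.53 (adjusted p = 0.00384), -0.45 (adjusted p = 0.0129) and 0.57 (adjusted p = 0.0299). Without composition factors the first was 0.45 (adjusted p = 0.0268) and the second -0.44 (adjusted p = 0.0329). Per kilobase, ACO1 per IREB2 stayed between 0.366 and 0.745 over the 12 libraries.

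The effect of nilotinib differed between hemin and mock cells for 4 of the 10 genes, 3 with a larger rise under hemin (STEAP3, SLC25A37 and SLC40A1) and 1 with a lower value under hemin (FTH1). Among all genes 30.1% were called for this difference, 17.1% higher and 13.0% lower, and the medians were 0.43 for the 10 genes and 0.06 for all. Without hemin nilotinib replicate 1 the call of FTH1 was lost (-0.61, adjusted p = 0.0695). TFR2 (0.60, adjusted p = 0.0660) and SLC11A2 (0.51, adjusted p = 0.0728) lay just short of the threshold. For STEAP3, SLC25A37 and SLC40A1 alike, hemin lowered the level in DMSO cells and its effect in nilotinib cells had an interval that included 0. For STEAP3 this changed without hemin nilotinib replicate 1, where hemin was called to lower it in nilotinib cells (log2 -0.59, adjusted p = 0.0148).

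Around these 10 genes, 54 other genes of iron handling had a row and 49 could be tested. Under hemin, nilotinib changed 37 of the 49 (75.5%, against 64.2% of all genes), 21 higher and 16 lower, with a median log2 of 0.08. Without hemin it changed 28 (57.1%, against 42.5%), 18 higher and 10 lower, with a median of 0.05. Hemin changed 33 in DMSO cells (67.3%, against 53.6%), 12 higher and 21 lower, with a median of -0.05. In nilotinib cells it changed 2 (4.08%, against 5.80%), HMOX1 higher and PCBP2 lower, with a median of -0.13. For the difference between the effects of nilotinib, 15 were called (30.6%, at the 30.1% of all genes), 9 higher and 6 lower, with a median of 0.04.

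Among the 14 tested genes of uptake and intracellular delivery, nilotinib changed 11 under hemin (7 higher, 4 lower), which is 78.6% against 64.2% of all genes, and 10 without it (7 higher, 3 lower), which is 71.4% against 42.5%. ABCB10, which partners mitoferrin-1 in the inner mitochondrial membrane, rose with nilotinib under hemin from 56.8 ± 16.2 to 498 ± 72.4 CPM (SD, n = 3 each; log2 3.13, adjusted p = 3.72e-09). The plasma membrane metal transporters of the ZIP family moved apart: SLC39A14 fell with nilotinib under hemin from 217 ± 21.6 to 15.4 ± 5.58 CPM (log2 -3.81, adjusted p = 6.30e-10) and without hemin by 3.44 on the log2 scale (adjusted p = 4.34e-09), whereas SLC39A8 rose without hemin from 77.6 ± 11.9 to 389 ± 124 CPM (log2 2.33, adjusted p = 8.47e-07). LTF, the iron-binding lactoferrin, was called in 3 comparisons but its mean did not exceed 2.59 CPM in any group. With hemin alone 8 of the 14 were called (57.1%, near the 53.6% of all genes), 4 higher and 4 lower, among them SNX3, a sorting protein that recycles the transferrin receptor, with a log2 of 1.41 (adjusted p = 1.24e-06), and the endolysosomal channel MCOLN1 with 1.33 (adjusted p = 4.36e-06). None of the 14 was called for hemin in nilotinib cells by edgeR, where 4 had an unadjusted p under 0.05 and DESeq2 called 2, and with hemin nilotinib replicate 1 left out 5 of the 49 iron genes (against 12.8% of all genes) were called.

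Of 11 genes of export and heme handling, 7 were called with nilotinib under hemin (4 higher, 3 lower), which at 63.6% was the same share as among all genes (64.2%). Without hemin 7 were called (5 higher, 2 lower, 63.6% against 42.5%), with hemin alone 8 (3 higher, 5 lower, 72.7% against 53.6%) and with hemin in nilotinib cells 1 (9.09% against 5.80%). HMOX1, the inducible heme oxygenase that frees iron from heme, held 3, 5 and 7 counts in mock DMSO, 0, 2 and 1 in mock nilotinib, 1035, 2254 and 1624 in hemin DMSO and 14, 69 and 94 in hemin nilotinib. As levels the hemin groups held 31.7, 71.9 and 41.2 CPM in DMSO cells and 0.402, 1.89 and 2.20 CPM in nilotinib cells, a log2 of -4.99 (SE 0.44, adjusted p = 9.14e-08). The rise with hemin was called in DMSO cells (adjusted p = 1.41e-08) and in nilotinib cells (adjusted p = 0.00154), and hemin nilotinib replicate 1 had the lowest HMOX1 and the lowest FTL of the 6 hemin libraries. ABCG2, a heme and porphyrin exporter, rose with nilotinib from 0.602 ± 0.110 to 9.17 ± 0.926 CPM under hemin (log2 3.91, adjusted p = 3.24e-09) and by a log2 of 4.08 without it (adjusted p = 4.34e-09). HMOX2, the constitutive heme oxygenase, fell with nilotinib without hemin (log2 -1.22, adjusted p = 0.000208).

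NCOA4, the receptor that delivers ferritin to lysosomes for iron release, moved with the uptake genes. It stood at 384, 455 and 450.1 CPM in mock DMSO, 240.4, 262 and 234 in hemin DMSO, 528, 825 and 807 in mock nilotinib, and 498, 617 and 504 in hemin nilotinib. Nilotinib raised it without hemin (log2 0.74, SE 0.17, adjusted p = 0.00181) and with hemin (log2 1.14, SE 0.17, adjusted p = 2.15e-05), hemin lowered it in DMSO cells (log2 -0.81, adjusted p = 0.000712), and in nilotinib cells the value was -0.42 (adjusted p = 0.153). Of the 4 tested genes of iron chaperones and ferritin turnover, NCOA4 was 1 of 2 called under hemin with nilotinib and 1 of 2 with hemin alone, and the only one called with nilotinib without hemin. As shares of the 4 these were 50% (against 64.2% of all genes), 50% (against 53.6%) and 25% (against 42.5%). The chaperone PCBP2 was called lower with hemin in nilotinib cells (log2 -0.53, SE 0.15, adjusted p = 0.0475).

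FBXL5, the iron-sensing ubiquitin ligase that marks the IREB2 protein for degradation, stood between 31.8 and 49.5 CPM over all libraries. It rose with nilotinib without hemin (log2 0.46, SE 0.12, adjusted p = 0.00605) and had a log2 of 0.02 with hemin (adjusted p = 0.883). Of the 4 genes that control the IRE-binding proteins, 2, 1, 2 and 0 were called for nilotinib under hemin, nilotinib in mock cells, hemin in DMSO cells and hemin in nilotinib cells, the last also 0 at an unadjusted p under 0.05 and by DESeq2. As shares these were 50%, 25%, 50% and 0%, against 64.2%, 42.5%, 53.6% and 5.80% of all genes.

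All 13 tested genes of iron-sulfur cluster assembly were called with nilotinib under hemin, 7 higher and 6 lower, with a median of 0.60, where 64.2% of all genes were called. Without hemin 7 were called (4 higher, 3 lower, 53.8% against 42.5%), and with hemin alone 10 (3 higher, 7 lower, 76.9% against 53.6%, median -0.52). In nilotinib cells none was called for hemin by edgeR (against 5.80%), by DESeq2 or at an unadjusted p under 0.05. Of the 3 systemic iron signals tested, all 3 were called with hemin alone (against 53.6% of all genes). With nilotinib 2 were called (66.7%), both with hemin (against 64.2%) and without it (against 42.5%). HJV, the co-receptor hemojuvelin, fell with nilotinib from 7.87 ± 0.951 to 0.277 ± 0.0741 CPM without hemin, and ERFE, the erythroid hormone erythroferrone, fell with hemin alone from 28.4 ± 0.714 to 10.9 ± 0.655 CPM (log2 -1.38, adjusted p = 2.11e-06).

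The genes whose levels followed the members most closely were sought among 9451 genes by the root mean square difference of centred log2 CPM over the 12 libraries, as a description only. For SLC25A37, whose own root mean square deviation from its mean was 2.31, the closest was APLNR at 0.38, followed by C1RL-AS1 (0.48) and C17orf99 (0.49). FTL (own deviation 1.25) was closest to GCLM (0.29), GSR (0.32) and SQSTM1 (0.33), and FTH1 (0.56) to EMC3 (0.18), KIAA0232 (0.20) and MCM5 (0.21). TFR2 (0.78) was closest to CCDC144NL-AS1 (0.13), HEXDC (0.15) and SLC44A2 (0.17), and SLC40A1 (1.13) to MAN2A2 (0.16), ST3GAL2 (0.18) and JAK2 (0.19). TFRC had no near match: PIDD1 came first at 0.60, then NLRX1 (0.64) and TRIM45 (0.66), against an own deviation of 1.28.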

How the data were processed

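RNA-seq of K562 cells gave 12 libraries, 3 biological replicates in each of 4 groups taken from the labels. The authors deposited the raw count of 150-base paired-end reads per gene, made by their sequencing service, and FPKM per gene, which divide counts per kilobase by DESeq2 size factors and served only as an alternative. The aligner and strandedness were not given in the sources used here; the submitters' notes name GRCh38.p12. A table of group means was not used. Gene positions and transcripts came from GENCODE 29.

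Counts were fitted in R 4.3.3 with edgeR 4.0.16 (filterByExpr with a minimum count of 10 and a minimum total of 15, TMM, quasi-likelihood, 1 mean per group over all 12 libraries, two-sided, Benjamini-Hochberg over all genes tested). Alternatives were DESeq2 1.42.0, limma-trend (limma 3.58.1) on log2(FPKM + 1) and log2(FPKM + 0.1), edgeR with RLE factors, with upper-quartile factors or without composition factors, a looser filter (any gene with 1 count or more) and a stricter filter (10 counts or more in every library), a fit of only the 6 libraries compared, a replicate block, and leaving out each of the 12 libraries. The procedure was tested on simulated data. The replicate numbers of the labels were taken to pair libraries where the deviations from the group means correlated above 0.1 in all 3 same-numbered pairs, which held between mock nilotinib and hemin nilotinib alone (0.199 to 0.263). Nilotinib without hemin (0.0869 to 0.0989) and hemin without nilotinib (0.0849 to 0.104) came near this limit, so pairing there is undecided. For nilotinib with hemin the values ran from -0.00712 to 0.235.

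The members, the other iron genes and the markers were chosen with earlier results of these data known. Values of some single listed genes are not reported here, though the counts of iron genes include them. Named besides the members were, in each comparison of 2 groups, the 3 called iron genes that rose most and the 3 that fell most, at a mean of at least 1 CPM, and HMOX1, NCOA4, FBXL5 and SLC25A28. Genes like a member were sought at a mean of at least 10 CPM. With 3 libraries a group, p-values rest on 8 residual degrees of freedom shared over the groups and on further ones that edgeR borrows from the other genes. Figures were made in Python 3.11.15 with matplotlib 3.10.9.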

Additional observations from a re-analysis of the deposited data

Results flagged for a closer look

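Nilotinib acted to a different extent in hemin and mock cells on 4 of the 10 genes, by the test of that difference. Of all genes tested, 30.1% were called for it. The effect under hemin minus the effect in mock cells was a log2 of 1.62 for STEAP3, 2.36 for SLC25A37, 1.85 for SLC40A1 and -0.72 for FTH1. The first 3 kept their call in all 21 alternatives, and FTH1 lost it in 10, among them the fit without hemin nilotinib replicate 1 (-0.61, adjusted p = 0.0695). The summed erythroid markers also differed between nilotinib and DMSO libraries, and their part in these differences was not tested.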

How the results depend on the processing

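Of the log2 fold changes of the 10 genes, 1052 values under an alternative kept both direction and side of the threshold, 43 passed it newly, 27 no longer passed it and 8 changed sign. Those 8 were all of uncalled values near 0: IREB2 for nilotinib without hemin (0.063 with upper-quartile factors), FTH1 for nilotinib with hemin (0.0347 with no composition factors), ACO1 for nilotinib without hemin (-0.00156 with mock nilotinib replicate 2 left out, -0.00156 to 0.096 over the 12 libraries left out in turn), SLC25A37 for hemin with nilotinib (0.115 with mock nilotinib replicate 3 left out and 0.0467 with hemin nilotinib replicate 1 left out, -0.23 to 0.12 over all) and the TFRC difference between the effects of nilotinib (0.0416 with mock DMSO replicate 1 left out, 0.130 and 0.170 with hemin nilotinib replicates 2 and 3 left out, -1.69 to 0.17 over all). The cause was not tested.

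The number of members called ran over the alternatives from 6 to 9 for nilotinib with hemin, 6 to 7 without hemin, 6 to 9 for hemin without nilotinib and 3 to 6 for the difference. For hemin with nilotinib, where 1 was called, it was 2 with DESeq2, with at least 10 counts in every library and with the replicate block, 3 with all genes of at least 1 count and with the replicate block in the 6 libraries alone, and 1 to 4 with each library left out in turn. Of the other iron genes, 2 were called there, 5 with DESeq2 and with all genes of at least 1 count, 1 with upper-quartile factors, with at least 10 counts in every library, with log2(FPKM + 0.1) and in the 6 libraries alone, 0 with log2(FPKM + 1), and 1 to 5 with each library left out in turn. Over all genes that comparison called 1208, against 183 in the 6 libraries alone, 694 and 741 with FPKM, 1974 with DESeq2, 1987 with all genes of at least 1 count, and 213 to 2793 with each library left out.

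Without composition factors the median of all genes moved to 0.20 for nilotinib with hemin, -0.29 for hemin without nilotinib and 0.27 for the difference. The calls then split into 3881 higher and 7578 lower for hemin without nilotinib (5360 and 5796 with TMM) and 4799 and 1752 for the difference (3558 and 2713). For the difference, upper-quartile factors gave 2914 and 3380 and log2(FPKM + 1) gave 3006 and 3471. For hemin with nilotinib the split was 733 and 475, against 527 and 545 without factors, 360 and 381 with log2(FPKM + 1) and 790 and 810 with the replicate block in the 6 libraries alone.

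The replicate block was also fitted where the replicate numbers did not meet the limit set for pairing. In 12 libraries it turned the call of TFR2 (0.62, adjusted p = 0.0468) and SLC11A2 (0.52, adjusted p = 0.0498) for the difference and of SLC11A2 for hemin without nilotinib (-0.36, adjusted p = 0.0370). In the 6 libraries alone it ended the calls of TFRC (1.23, adjusted p = 0.0747) and FTL (-0.78, adjusted p = 0.0528) for nilotinib with hemin. Depth set no limit on the members, whose lowest count was 184, but HMOX1 in mock nilotinib held 0 to 2 counts.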
